A study of Mus musculus with 6 samples.

Results

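Periostin, the tenascins, fibronectin and 5 further adhesive and matricellular genes were examined in melanomas grown at 2 body sites. The 9 genes (Postn, Tgfbi, Tnc, Tnn, Tnxb, Fn1, Sparc, Sparcl1 and Spp1) were taken by symbol from a table of 45777 genes, and each symbol matched 1 row. Tumors came from B16F10 cells, a mouse melanoma line, implanted in the hind footpad (3 tumors) or the flank skin (3 tumors), with 1 total RNA library per tumor. The labels give Foxn1-/- hosts at 8 weeks of age for all 6 tumors. Mice without Foxn1 have no thymus and few mature T cells but keep fibroblasts, vessels and myeloid cells. The paper's methods describe C57BL/6J hosts for syngeneic grafts of this line and Foxn1-null hosts for its bioluminescence imaging. Its results report tumors of this line in both hosts, and it does not name the host of the sequenced tumors. The methods speak of isolated tumor cells and describe no separation from host cells, and the labels say that whole tumors were removed. The paper describes implanting both sites of a mouse together and counts mice for its expression values, so a footpad and a flank tumor may come from the same mouse. Neither it nor the labels tie tumors to individual mice or say that a replicate number marks a mouse, so p-values measure the spread between these 6 tumors. Site was the one condition that differed by label, and the question was how expression differs between a weight-bearing and a non-weight-bearing site.

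Matricellular proteins are secreted into the extracellular matrix and change how cells attach to it. Periostin (Postn) and TGF-beta-induced protein (Tgfbi) share fasciclin domains and bind collagen and integrins, and periostin is made mainly by activated fibroblasts. Tenascin-C (Tnc), tenascin-W (Tnn) and tenascin-X (Tnxb) are large glycoproteins. Tenascin-C and tenascin-W appear in tumor stroma and healing wounds, while tenascin-X is a component of loose connective tissue. Fibronectin (Fn1) forms the fibrils on which collagen and periostin are deposited, through integrin alpha5 beta1. SPARC binds collagen and is made by fibroblasts, endothelial cells and melanoma cells, and Sparcl1 is its close relative. Osteopontin (Spp1) is a secreted ligand of integrins and CD44 that is abundant in macrophages and many tumors.

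Between 46529649 and 66364366 reads were counted on genes in each tumor, and a count of 3 reads equaled 0.0438 to 0.0673 CPM (counts relative to the library total, scaled by edgeR's TMM method). All 9 genes passed edgeR's filter on low counts, which kept 17210 genes, whose median log2 fold change was -0.0042. Reads on the 9 genes made up 0.308% to 0.412% of a footpad library and 0.105% to 0.182% of a flank library. The 8 melanocyte markers had reads in every tumor, with sums of 10067 to 18637 CPM in footpad and 14814 to 25513 CPM in flank tumors. Their median log2 fold change was -0.29, with 1 of 8 above 0, and 0 of them were called by edgeR or DESeq2. With edgeR's p unadjusted, 1 was lower at p under 0.05 and 2-fold, against 2.82% of all genes. In these bulk libraries a different number of cells of a type cannot be told apart from a different amount of RNA per cell. Values below are given for replicates 1, 2 and 3 in that order.

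Of the 9 genes, 3 were called higher in footpad tumors (Postn, Fn1 and Tnxb) and 0 lower, by edgeR's quasi-likelihood test with a Benjamini-Hochberg adjusted p under 0.05 over all genes and a fold change of 2 or more. Across all genes tested, 2.89% were called higher and 0.872% lower. The 9 genes were chosen with earlier results of these data known, so such shares give no test of the set. With the p left unadjusted, 6 of the 9 passed as higher and 0 as lower, against 9.16% and 2.82% of all genes. DESeq2 called 5 higher and 0 lower, against 6.73% and 2.05% of the genes it gave an adjusted p. For 6 of the 9, every footpad tumor lay above every flank tumor, against 17.5% of all genes, and for 0 of the 9 every footpad tumor lay below, against 14.9%. The median log2 fold change of the 9 was 2.24. Leaving out single tumors changed the number called to 0 (footpad replicate 3, and likewise flank replicate 3), 1 (footpad replicate 1), 2 (flank replicate 1, with Sparc in place of Postn and Tnxb) or 6 (flank replicate 2). Calls over all genes changed in the same fits, from 497 higher to 0 (footpad replicate 3), 36 (flank replicate 3), 26 (footpad replicate 1), 231 (flank replicate 1) and 432 (flank replicate 2). In both fits with 0 members called, 5 of the 9 passed as higher with the p left unadjusted. Of all genes, 1459 of 17969 did so without footpad replicate 3 and 1287 of 17876 without flank replicate 3. With the replicate number as a block, which would apply if it marked a mouse, edgeR called 0 genes, and the adjusted p was 0.0844 for Postn, 0.0552 for Tnxb and 0.0552 for Fn1.

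**Figure D1:**
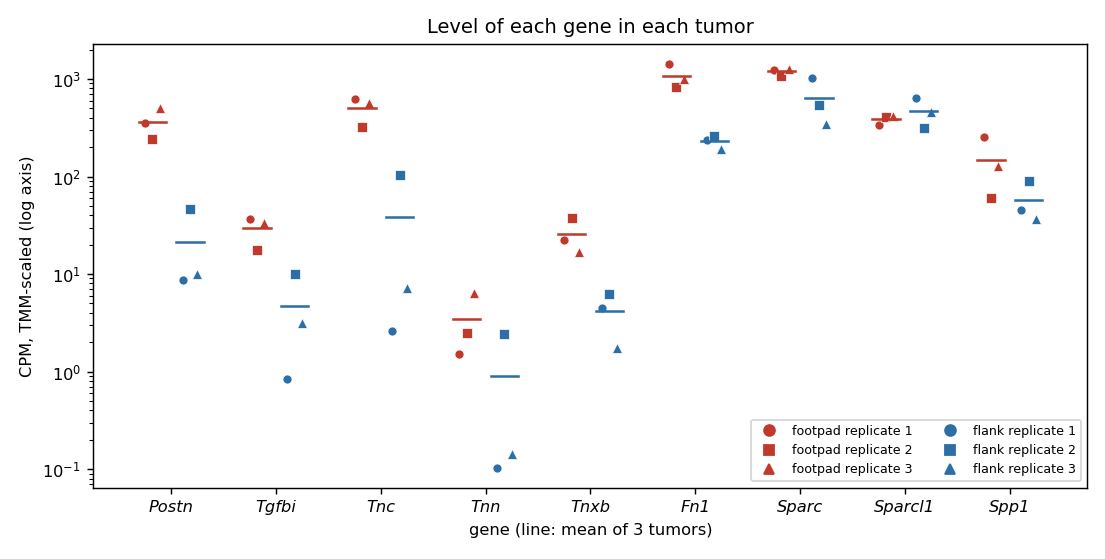
TMM-scaled CPM (log axis) of each gene in the 3 footpad (red) and 3 flank (blue) tumors, with a marker shape per replicate number and a line at the mean of each site. Flank replicate 2 is the highest flank tumor for Postn, Tgfbi, Tnc, Tnn, Tnxb, Fn1 and Spp1, and the sites overlap for Tnn, Sparcl1 and Spp1.

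Promoter sequences are given for genes of the largest differences and for the called tenascin. RefSeq start sites on GRCm38.p6 gave 10 windows, each from 250 bases before to 50 bases after a start, for 7 of the 9 genes. The windows were searched on both strands for 5 motifs, and no matches overlapped. The TATA box, searched as TATATAA, was found in 1 window each of Postn, 28 bases before the start, and Tnc, 29 bases before the start, and in 3.24% of all 32851 promoter windows. An AP-1 motif, searched as TGANTCA, was found in the window of Tnxb, 55 bases before a start inside the gene, and in 7.81% of all windows. The core letters bound by TEAD factors, CATTCC, were found in the window of Tnn and in 14.7% of all windows. The letters CCAAT were found in Tnn, in 1 window of Spp1 and at the upstream start of Postn, and in 37.4% of all windows. A SMAD motif, GTCTAGAC, was in 0 of the 10 windows and in 0.213% of all. A match describes the letters only and is not evidence of binding.

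The windows below are the downstream starts of Postn at chr3:54360857-54361156 on the plus strand and of Tnc at chr4:64046887-64047186 on the minus strand, and a start within Tnxb, downstream of the gene's 5′ end, at chr17:34670285-34670584 on the plus strand, each written 5′ to 3′ along the gene with the matched letters in capitals.

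Postn: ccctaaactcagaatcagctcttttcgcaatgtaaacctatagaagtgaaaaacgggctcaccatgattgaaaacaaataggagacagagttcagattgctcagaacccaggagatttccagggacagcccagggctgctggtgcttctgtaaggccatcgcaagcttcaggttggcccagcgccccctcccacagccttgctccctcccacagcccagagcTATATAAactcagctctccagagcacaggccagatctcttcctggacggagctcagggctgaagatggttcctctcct

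Tnc: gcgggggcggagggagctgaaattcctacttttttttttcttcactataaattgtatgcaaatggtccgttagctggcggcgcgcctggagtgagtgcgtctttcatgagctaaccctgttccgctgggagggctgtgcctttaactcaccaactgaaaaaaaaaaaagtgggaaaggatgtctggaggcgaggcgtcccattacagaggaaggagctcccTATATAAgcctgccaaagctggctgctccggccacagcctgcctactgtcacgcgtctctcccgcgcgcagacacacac

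Tnxb: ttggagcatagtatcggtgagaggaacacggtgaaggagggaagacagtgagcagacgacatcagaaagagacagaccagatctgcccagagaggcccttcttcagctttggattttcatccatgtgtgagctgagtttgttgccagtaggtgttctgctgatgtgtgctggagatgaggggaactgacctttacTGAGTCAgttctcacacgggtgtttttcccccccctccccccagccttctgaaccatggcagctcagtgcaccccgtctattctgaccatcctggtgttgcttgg

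Of the fasciclin-domain pair, Postn lies on chromosome 3 of GRCm38 from 54359267 to 54391041. Footpad tumors held 355, 239.7 and 502 CPM of Postn, and flank tumors 8.71, 46.0 and 9.95 CPM. All footpad tumors were above all flank tumors, and flank replicate 2 stood above the other flank tumors. The means were 366 ± 132 CPM and 21.6 ± 21.2 CPM (SD, n = 3 each). Postn rose 16.97-fold, a log2 fold change of 4.09 (95% interval 2.43 to 5.74, adjusted p = 0.0271 from edgeR). The fits that left out 1 tumor gave 3.71 to 5.29 (log2). Its adjusted p from edgeR was above 0.05 without footpad replicate 1 (0.0932) or 3 (0.1097) and without flank replicate 1 (0.058) or 3 (0.099), and 0.00461 without flank replicate 2.

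Tgfbi, on chromosome 13 from 56609586 to 56639359, encodes a protein that links collagen to integrins. It was at 36.8, 17.6 and 33.6 CPM in footpad tumors and at 0.845, 10.02 and 3.18 CPM in flank tumors. The sites did not overlap, and the flank tumors spread over an 11.9-fold range, against 2.09-fold among footpad tumors. The log2 fold change was 2.65 (95% interval 0.84 to 4.46, adjusted p = 0.0894 from edgeR), which did not pass. DESeq2 gave an adjusted p of 0.0359. Without flank replicate 2 the log2 fold change was 3.85 (adjusted p = 0.0385 from edgeR), and in the other fits without 1 tumor it was 2.15 to 2.91 with adjusted p from 0.0826 to 0.243.

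Tnc, on chromosome 4 from 63959785 to 64047015, had the largest spread among flank tumors of the 9 genes. Footpad tumors held 629, 318 and 570.0 CPM, and flank tumors 2.62, 105 and 7.11 CPM. Every footpad tumor was above every flank tumor, yet the highest flank tumor held 40.0 times the level of the lowest. The log2 fold change of Tnc was 3.73 with a 95% interval from 0.82 to 6.64 (adjusted p = 0.12 from edgeR). DESeq2 gave an adjusted p of 0.042. Without flank replicate 2 the log2 fold change was 6.69 (adjusted p = 0.00933 from edgeR), and in the other fits without 1 tumor it was 3.17 to 3.97 and did not pass.

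Tnn, on chromosome 1 from 160085029 to 160153692, had few reads. It had 67, 169 and 313 counts in footpad tumors and 6, 143 and 9 counts in flank tumors, equal to 1.504, 2.46 and 6.39 CPM and to 0.103, 2.45 and 0.144 CPM. Flank replicate 2 was above footpad replicate 1, so the sites overlapped. The log2 fold change was 1.94 (95% interval -0.76 to 4.65, adjusted p = 0.338 from edgeR). Without flank replicate 2 it was 4.77 (adjusted p = 0.0389 from edgeR). Leaving out footpad replicate 3 instead gave 1.14 (adjusted p = 0.664 by edgeR).

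Tnxb, on chromosome 17 from 34660453 to 34719815, differed from the other tenascins in that footpad replicate 2 was its highest tumor. Its levels were 22.2, 37.4 and 16.7 CPM in footpad tumors and 4.54, 6.23 and 1.73 CPM in flank tumors, with no overlap. Tnxb rose 6.12-fold in footpad tumors, a log2 fold change of 2.61 (95% interval 1.45 to 3.78, adjusted p = 0.0348 from edgeR). In the fits without 1 tumor the log2 fold change stayed between 2.22 and 3.02. The adjusted p exceeded 0.05 without footpad replicate 1 (0.106) or 3 (0.0999) and without flank replicate 1 (0.0766) or 3 (0.0793). Footpad replicate 2 also held the largest sum of keratinocyte markers, 678 CPM against 1.60 to 44.4 CPM in the other tumors, and of skeletal muscle markers, 559 CPM against 6.45 to 70.0 CPM. Its pericyte and smooth muscle sum was largest too, 144 CPM against 57.3 to 114 CPM. Among flank tumors Tnxb and skeletal muscle markers were highest in replicate 2, but keratinocyte markers in replicate 3 and pericyte and smooth muscle markers in replicate 1. The sums of several other marker lists were also examined. The part of these tissues in the level of Tnxb was not tested, and without that tumor the log2 fold change was 2.22 (adjusted p = 0.049 from edgeR).

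Fn1, on chromosome 1 from 71585473 to 71653280, was the most precisely measured of the members that differed. Footpad tumors held 1419.6, 833 and 998 CPM, and flank tumors 236, 262 and 190.4 CPM. The lowest footpad tumor was above the highest flank tumor by more than the range within the flank. The means were 1083.5 ± 302 CPM and 229 ± 36.1 CPM (SD, n = 3 each). Fn1 rose 4.72-fold, a log2 fold change of 2.24 (95% interval 1.67 to 2.81, adjusted p = 0.0105 from edgeR). Leaving out a tumor gave 1.99 to 2.40, and the adjusted p passed 0.05 without footpad replicate 3 (0.0596) and without flank replicate 3 (0.0586). Counts are per gene and do not separate the splice forms of fibronectin or tenascin-C.

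Sparc, on chromosome 11 from 55394159 to 55420080, was abundant at both sites. It was at 1242, 1064 and 1279 CPM in footpad tumors and at 1026, 537 and 347 CPM in flank tumors. The sites did not overlap, with footpad replicate 2 close above flank replicate 1. The log2 fold change was 0.91 (95% interval 0.05 to 1.76, adjusted p = 0.176 from edgeR), under the fold threshold. Without flank replicate 1 it was 1.43 (adjusted p = 0.0429 from edgeR).

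Sparcl1, on chromosome 5 from 104079108 to 104114088, was the one member with a lower mean in footpad tumors. Footpad tumors held 335, 408 and 420.2 CPM, and flank tumors 636, 312 and 458 CPM. Flank replicates 1 and 3 were above and flank replicate 2 below all footpad tumors. The log2 fold change was -0.27 (95% interval -0.88 to 0.33, adjusted p = 0.546 from edgeR), an interval that leaves out a 2-fold difference in either direction. Without flank replicate 1 it was 0.0062.

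Spp1, on chromosome 5 from 104435111 to 104441053, varied most among footpad tumors, over a 4.301-fold range. It was at 256, 59.5 and 128.5 CPM in footpad tumors and at 45.5, 89.4 and 36.8 CPM in flank tumors. Footpad replicate 2 was below flank replicate 2, so the sites overlapped. The log2 fold change was 1.37 (95% interval 0.12 to 2.62, adjusted p = 0.168 from edgeR), with 0.71 without footpad replicate 1. The summed macrophage markers were at 292, 263 and 299 CPM in footpad tumors and at 34.6, 181 and 82.3 CPM in flank tumors. Among flank tumors replicate 2 was highest in both Spp1 and these markers, while among footpad tumors the markers were nearly level. The summed neutrophil markers, at 346, 6.61 and 171 CPM in footpad tumors and 20.0, 29.1 and 4.22 CPM in flank tumors, ranked the 3 tumors of each site in the same order as Spp1. Each order rests on 3 tumors, and the sums of several other marker lists were also examined. The part of either cell type in Spp1 was not tested.

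**Figure D2:**
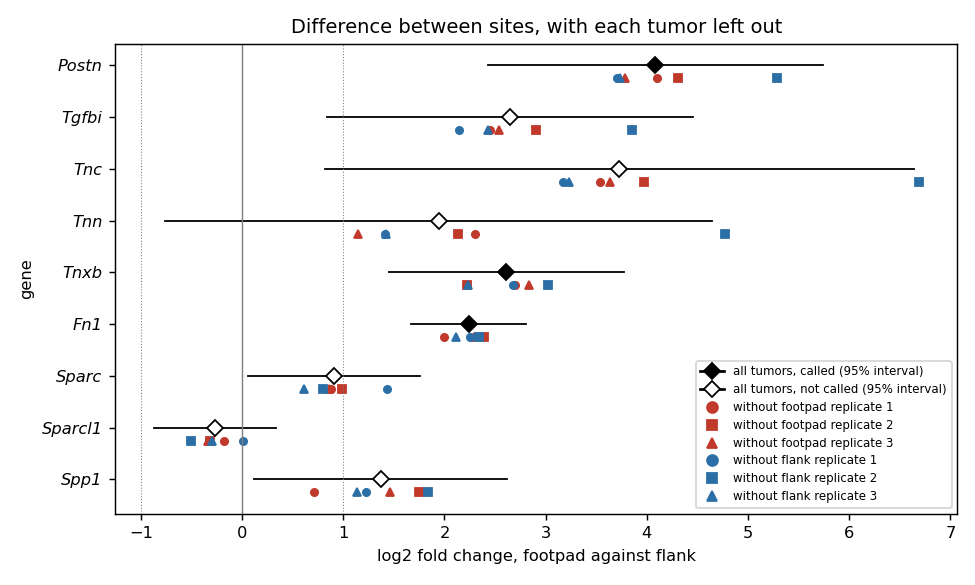
Log2 fold change of each gene between footpad and flank tumors by edgeR, with its 95% interval (black line), and the value in each fit that left out 1 tumor (colored markers beneath). Filled diamonds are the genes called with all tumors. Leaving out flank replicate 2 moves Tnc from 3.73 to 6.69 and Tnn from 1.94 to 4.77, while Fn1 stays between 1.99 and 2.40.

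The order of levels between genes was taken from FPKM, which the authors scaled for transcript length. In footpad tumors Sparc had the highest mean, 431 ± 35.9 FPKM (SD, n = 3), and its lowest tumor was above the highest tumor of any other member. Fn1 (118 FPKM), Sparcl1 (111), Postn (104), Spp1 (89.0) and Tnc (63.1) followed, and each overlapped the next in its range over the 3 tumors. Tgfbi (9.49), Tnxb (1.79) and Tnn (0.536) came after, each below the range of the gene before it. In flank tumors Sparc (221 ± 107 FPKM, SD, n = 3) and Sparcl1 (131 ± 34.9) overlapped at the top, and all other members were below both. Spp1 (36.6) and Fn1 (25.5) overlapped and were above Postn (6.45), Tnc (5.31), Tgfbi (1.62), Tnxb (0.282) and Tnn (0.149), each of which overlapped the next. In footpad tumors Postn held 93.0, 71.9 and 146 FPKM and Sparcl1 88.1, 122.3 and 122.1 FPKM, so their ranges overlapped. In flank tumors their means were 6.45 and 131 FPKM.

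The summed FPKM of the 9 genes was 962, 797.5 and 1022 in footpad tumors and 556, 426 and 302 in flank tumors. Sparc and Sparcl1 together made up 51.3%, 67.4% and 58.1% of that sum in footpad tumors and 90.4%, 70.5% and 83.9% in flank tumors. Postn made up 9.67%, 9.02% and 14.3% in footpad tumors and 0.405%, 3.35% and 0.931% in flank tumors. The 2 SPARC genes therefore formed a larger share in every flank tumor than in any footpad tumor, with 70.5% in flank replicate 2 close to 67.4% in footpad replicate 2.

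**Figure D3:**
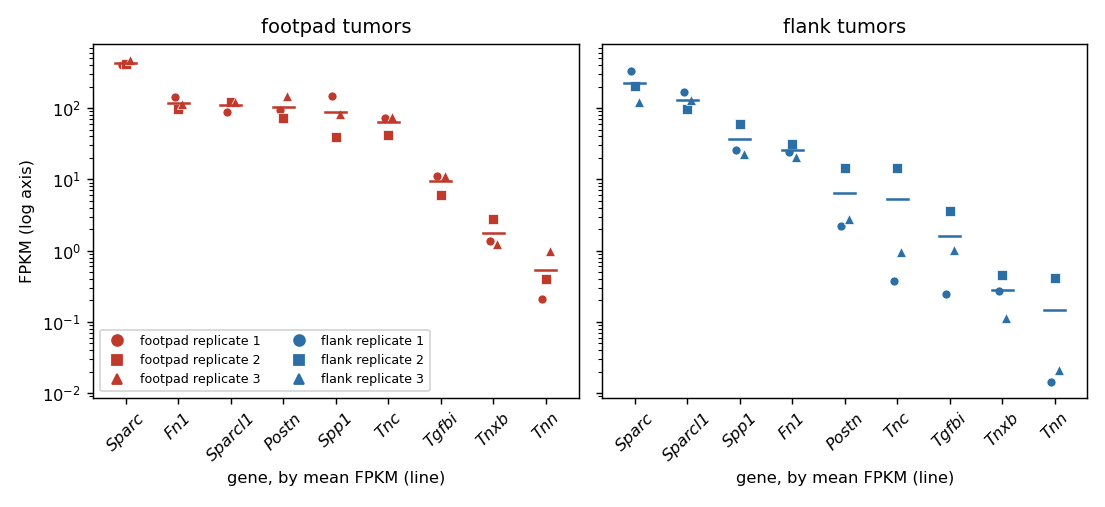
FPKM (log axis) of the 9 genes in the 3 footpad tumors (left) and the 3 flank tumors (right), ordered within each site by the mean (line). Sparc has the highest mean at both sites, though Sparcl1 is above it in flank replicate 3. Fn1, Postn and Tnc lie near Sparcl1 and Spp1 in footpad tumors but below Sparcl1 in every flank tumor.

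Fibroblast markers moved with the site and with flank replicate 2. Of 12 listed genes (Pdgfra, Dcn, Lum, Dpt, Pi16, Fap, Twist2, Prrx1, Mfap5, Clec3b, Twist1 and Tcf21), 11 were tested, while Tcf21 had 0 reads. All 11 separated the sites with footpad tumors higher, against 17.5% of all genes, and 7 were called higher, against 2.89%. Their summed level was 159, 142 and 206 CPM in footpad tumors and 7.11, 34.1 and 8.32 CPM in flank tumors, so that flank replicate 2 held the highest flank value, as it did for Postn, Tgfbi, Tnc and Tnn. Between the site means the log2 of this sum differed by 3.72, and the part of fibroblast RNA in the members' levels was not tested. Each member was set against this sum within its own tumor, which by construction turns a difference smaller than 3.72 into a lower ratio. Postn had log2 ratios of 1.16, 0.76 and 1.29 in footpad tumors and 0.29, 0.43 and 0.26 in flank tumors, a difference of 0.74 with no overlap (two-sided exact permutation p = 0.1, the smallest that 3 tumors against 3 allow, unadjusted and 1 of 9 such ratios compared). Although its CPM spread 5.28-fold among flank tumors, the SD of its log2 ratio there was 0.0912.

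Tnc, in contrast, did not keep a steady ratio in flank tumors, with log2 values of -1.44, 1.62 and -0.23 against 1.98, 1.17 and 1.47 in footpad tumors (exact permutation p = 0.3). Relative to the markers, the log2 difference was -2.68 for Sparc, -3.94 for Sparcl1 and -2.49 for Spp1, each with the sites apart and the footpad tumors lower (exact permutation p = 0.1). Fn1 differed by -1.51 (exact permutation p = 0.2), Tnxb by -1.01, Tnn by -0.61 and Tgfbi by -0.50, all with overlap between the sites. In all, 7 of the 9 ratios had a lower mean in footpad tumors. No ratio can pass a threshold of 0.05 with 3 tumors against 3.

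**Figure D4:**
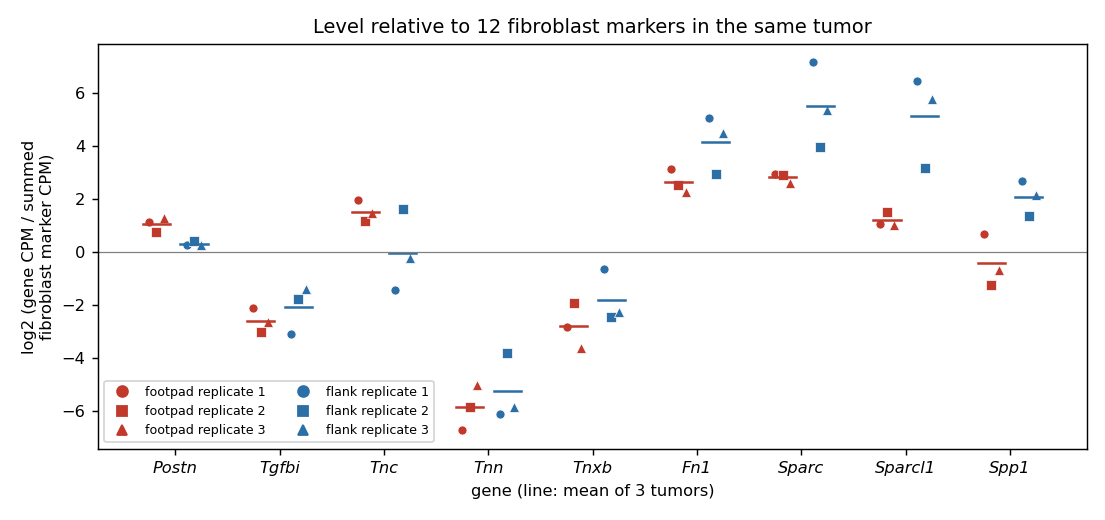
Log2 ratio of each gene's CPM to the summed CPM of 12 fibroblast markers in the same tumor, for footpad (red) and flank (blue) tumors, with a line at the mean of each site. The 3 flank values of Postn lie between 0.26 and 0.43, under its 3 footpad values, whereas Sparc, Sparcl1 and Spp1 lie higher in every flank tumor.

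Other cell types were read from lists of markers, which like the fibroblast list were chosen with earlier results of these data known. Of all genes, edgeR called 2.89% higher and 0.872% lower, and 9.16% were higher with its p unadjusted and 2-fold. DESeq2 called 6.73% of the genes it gave an adjusted p higher. Of 10 endothelial markers 9 separated the sites with footpad tumors higher, against 17.5% of all genes, and 3 were called higher, against 2.89%. Their sums were 318 to 359 CPM in footpad and 174 to 217 CPM in flank tumors. Pericyte and smooth muscle markers, of which 7 were tested and 1 was called, summed to 91.6 to 144 CPM against 57.3 to 114 CPM. Of 2 tested tendon markers, Fmod was called higher, and the sums were 38.7 to 192 CPM against 0.0345 to 8.72 CPM, nearly all from Thbs4 in footpad tumors. The defining tendon genes Scx, Mkx and Tnmd had too few reads to be tested. Scx and Mkx had at most 0.204 CPM in any tumor. Tnmd was at 0.0673, 0.438 and 0.388 CPM in footpad tumors and at 0 in every flank tumor. Of 4 tested cartilage and bone markers 1, Col2a1, was called lower, with sums of 61.4 to 79.2 CPM against 137 to 330.2 CPM. Most of these sums was Hapln1, not called, at 61.7 CPM on average in footpad and 203 CPM in flank tumors. Bglap had a log2 fold change of 0.94. Acan, Matn1, Sp7 and Snorc had at most 0.408 CPM in any tumor. Of 10 macrophage markers 1 was called higher by edgeR, against 3 by DESeq2 and 4 with edgeR's p unadjusted and 2-fold. The sites were apart with footpad tumors higher for 6 of the 10, against 17.5% of all genes, and the median log2 fold change was 1.12. By edgeR 0 of 8 neutrophil, 8 keratinocyte, 10 skeletal muscle, 7 Schwann cell and 3 adipocyte markers tested were called, against 1, 3, 0, 0 and 0 by DESeq2 and 6, 7, 0, 1 and 0 with edgeR's p unadjusted and 2-fold, all of these higher. Schwann cell markers summed to 104 to 118 CPM against 144 to 237 CPM, and adipocyte markers to 0.314 to 4.78 CPM against 0.671 to 9.31 CPM. Most of the Schwann cell sum was Cdh19, at 104 CPM on average in footpad and 177 CPM in flank tumors. Of the 7 Schwann cell markers, 4 had log2 fold changes above 0. The part of these cell types in the members' levels was not tested.

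Relatives of the members and their receptors were followed in lists of 42 genes, of which 36 were tested. These lists were written with earlier results of these data known, so the shares of all genes beside them give no test of enrichment. Of the 36 tested, 9 were called higher in footpad tumors and 0 lower, against 2.89% and 0.872% of all genes. Their median log2 fold change was 1.11. With the p left unadjusted 15 were higher and 0 lower, against 9.16% and 2.82% of all genes. DESeq2 called 13 higher and 0 lower, against 6.73% and 2.05% of the genes it gave an adjusted p. Every footpad tumor lay above every flank tumor for 17 of the 36, against 17.5% of all genes, and below for 1, against 14.9%. The number called higher fell to 0 when footpad replicate 3 was left out, to 2 for footpad replicate 1 and to 3 for flank replicate 3. With the p unadjusted, 15 were higher without footpad replicate 3, against 1459 of 17969 genes. With footpad replicate 2 left out the integrin subunit Itga9 was called lower.

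Among the other SPARC-family genes 1 of 4 tested was called higher, against 2.89% of all genes. Fstl1, a secreted glycoprotein of mesenchymal cells, was at 156, 229.7 and 219.98 CPM in footpad tumors and at 36.9, 47.7 and 27.5 CPM in flank tumors, without overlap (log2 fold change 2.44, 95% interval 1.86 to 3.01, adjusted p = 0.00926 from edgeR). Its difference stood between those of Fn1 and Tnxb, and unlike Tnc it showed little spread in the flank. Smoc2 had a log2 fold change of 3.29 (adjusted p = 0.0739 from edgeR), Smoc1 one of -0.39 and Spock2 one of 0.72. Spock1 and Spock3 had at most 0.0438 CPM. In the other families, the fasciclin-domain scavenger receptors Stab1 and Stab2, the tenascin Tnr and the osteopontin relative Dmp1 were tested and not called. Stab1 averaged 22.6 CPM in footpad and 12.3 CPM in flank tumors, and the others were under 1 CPM in every tumor. Ibsp and Mepe, which belong to the bone-matrix family of Spp1, had 0 reads.

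Of 16 further adhesive and matricellular glycoproteins 7 were called higher, against 2.89% of all genes, and the median log2 fold change of the list was 2.32. Cthrc1, a secreted protein of activated fibroblasts, averaged 6.84 CPM against 0.208 CPM (a difference of 5.03 in log2, adjusted p = 0.0384 by edgeR). Fndc1, which carries fibronectin type III domains, averaged 8.28 against 0.403 CPM (4.36, adjusted p = 0.0165 by edgeR). The basement membrane protein nidogen-1, Nid1, averaged 94.3 against 24.9 CPM (1.92, adjusted p = 0.00984 from edgeR). Aspn, Ecm1, Ecm2 and Mgp were the others called, with log2 fold changes of 2.46, 2.63, 2.59 and 2.19. Among the abundant members of the list that were not called, Fbln2 had a log2 fold change of 3.18 (adjusted p = 0.0581 from edgeR), Fbln1 one of 0.30 and Emilin1 one of 0.02.

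The median log2 fold change of 12 tested receptors was -0.02. Of the 12, edgeR called 1 higher, against 2.89% of all genes. DESeq2 called 2 higher, against 6.73% of the genes it gave an adjusted p. The sites were apart with footpad tumors higher for 5 of them, against 17.5% of all genes, and with footpad tumors lower for 1, against 14.9%. Itga5, the alpha subunit of the main fibronectin receptor, was the one called by edgeR, against 2 by DESeq2, with 125, 70.2 and 76.7 CPM in footpad tumors and 27.6, 30.4 and 22.9 CPM in flank tumors (log2 fold change 1.75, 95% interval 1.18 to 2.31, adjusted p = 0.0165 from edgeR). Its partner Itgb1 was at 784 CPM on average in footpad and 843 CPM in flank tumors (log2 fold change -0.10, 95% interval -0.49 to 0.28). Itgav, a receptor subunit for periostin and osteopontin, had 0.02 (95% interval -0.30 to 0.33), and the osteopontin receptor Cd44 had 0.37 (95% interval -0.0041 to 0.74). For these 3 abundant receptors the intervals leave out a 2-fold difference. Itgb3, which pairs with Itgav and was named after its values were seen, averaged 149 CPM in footpad and 50.3 CPM in flank tumors without overlap (log2 fold change 1.57, 95% interval 0.58 to 2.56, adjusted p = 0.074 from edgeR).

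**Figure D5:**
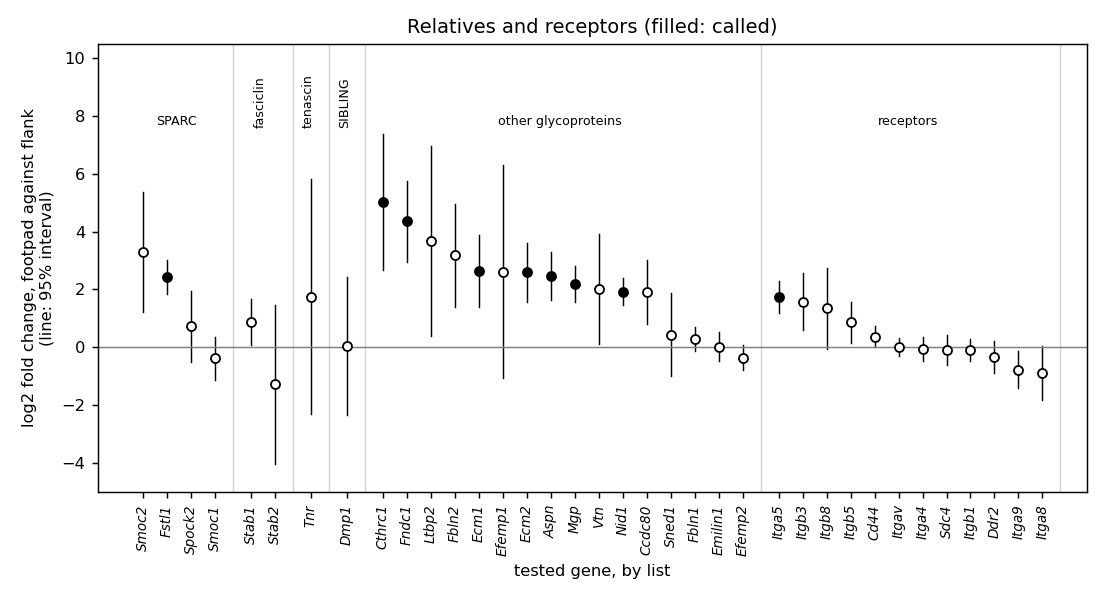
Log2 fold change between footpad and flank tumors with its 95% interval for the 36 tested relatives and receptors, grouped by list. Filled points are the 9 genes called, of which 7 are among the other glycoproteins, 1 is Fstl1 of the SPARC family and 1 is the receptor subunit Itga5.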

How the data were processed

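Total RNA libraries of 3 footpad and 3 flank skin B16F10 tumors were analyzed, grouped by the sample titles. The authors trimmed reads with Trimmomatic, aligned them to mm10 with HISAT2 2.1.0 (per the labels) and deposited whole read counts per RefSeq gene without normalization, as well as FPKM values scaled for length and depth. The counting program and its use of strand and of multi-matching reads are not given in the sources used here. The antisense RNA 8030451A03Rik within Tnc had 0 to 18 counts per tumor.

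Counts were fitted with edgeR 4.0.16 in R 4.3.3 (TMM, filterByExpr defaults, glmQLFit, glmQLFTest, Benjamini-Hochberg over 17210 genes). Standard errors were approximated as the fold change over the square root of F, and 95% intervals follow from them. Replicates differed by more than counting noise (chi-square of 58.6 or more per gene), and depth did not limit the abundant genes. Ratios to fibroblast markers were compared by two-sided exact permutation over tumors. Coordinates are RefSeq on GRCm38.p6, the mm10 assembly.

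The 9 genes and all lists were chosen with earlier results of these data known. Named from each list were the called genes and up to 3 others of highest mean CPM, plus the 3 genes nearest to each member. Alternatives were DESeq2 1.42.0, limma 3.58.1 on log2(FPKM + 1) and log2(FPKM + 0.1), upper-quartile factors, 2 other filters, a replicate block and leaving out each tumor. Figures were made with matplotlib 3.10.9.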

Additional observations from a re-analysis of the deposited data

How the results depend on the processing

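Over 13 alternatives, the sign of the log2 fold change held for all 9 genes in 115 of 116 values. The exception was Sparcl1, with -0.50 to 0.0062 over the fits without 1 tumor. Calls depended on the fit. DESeq2 called 1154 genes higher and 352 lower, with 5 members higher, and limma on log2(FPKM + 1) called 271 and 95, with 5 members higher. Leaving out each tumor gave 0 to 639 genes higher and 0 to 197 lower, 0 to 6 members higher, and 0 to 10 relatives and receptors higher with 0 to 1 lower. The cause of these changes was not tested. With the replicate block edgeR called 0 genes, 0 members and 0 relatives or receptors, while 1378 genes were higher and 413 lower with the p unadjusted and 2-fold, among them 6 members and 14 relatives or receptors, all higher. Whether same-numbered tumors share a mouse is not stated, and the correlations of their deviations were 0.0544, -0.0965 and -0.115, so the block was kept as an alternative. With 10 counts required in every tumor, Tnn was not tested. Tnn (6 to 143 reads), Tnxb (108 to 364) and Tgfbi (49 to 586) had the fewest reads summed over flank tumors.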

Other observations

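For each member the 3 tested genes closest in pattern were found as those with the smallest root mean square difference of log2 CPM over the 6 tumors, after each gene was centered on its mean. Their order depends on 6 values, and 17210 genes were searched. The closest to Postn were Medag (0.25), Col3a1 (0.252) and Col1a1 (0.258), the last 2 encoding fibrillar collagen chains, with log2 fold changes of 4.10, 4.08 and 4.10. Tnc was closest to Pdgfrl (0.335), Tpbg (0.443) and Arsj (0.566), and Tgfbi to Cmklr1 (0.247), Pmepa1 (0.262) and Apba1 (0.267). Tnn was nearest to LOC115487206 (0.292), Slc1a3 (0.463) and En1 (0.482), and Tnxb to Sync (0.305), Celsr1 (0.305) and Ldlrad4 (0.355).

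Fn1 lay nearest to Casc1 (0.0792), Sdc3 (0.141) and Spns2 (0.144), and Sparc to Lrrc75b (0.072), Gm3604 (0.117) and Kdelr3 (0.132). Sparcl1, which hardly differed between sites, was nearest to Gm3200 (0.0658), Rpl39-ps (0.0795) and Atpif1 (0.0833), and Spp1 to Apobr (0.118), LOC115489038 (0.176) and Tll2 (0.179). Members of 1 family were not each other's closest genes. The distance was 0.825 between Postn and Tgfbi, 1.36 between Tnc and Tnn, 2.004 between Tnc and Tnxb and 0.753 between Sparc and Sparcl1. The 2 closest members were Fn1 and Spp1, at 0.684, nearly level with Fn1 and Tnxb, at 0.691.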
